A study of Mus musculus with 8 samples.

Results

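The AP-1 factors examined here are 8 genes, chosen by name: *Fos*, *Fosb*, *Fosl1* and *Fosl2* of the Fos subfamily, *Jun*, *Junb* and *Jund* of the Jun subfamily, and the related *Atf3*. They are 8 of the 45706 genes in the gene table, and all 8 passed the filter on low counts. Each was measured by bulk RNA-seq of poly-A RNA in hippocampal neurons from C57/Bl6 *Wt* mice, taken at embryonic day 18 and kept in culture. Wells received either 1 µM melanin-concentrating hormone (MCH), a peptide that hypothalamic neurons release, or H2O as vehicle, for 4 h, and were collected at 12 to 14 days in vitro. Both treatments had 4 wells (replicates 1 to 4), 2 from each of 2 cultures. Which culture a replicate came from is not given in the sources used here, so *P* values measure the spread between wells. The labels carry an Alzheimer's disease tag beside a wild-type genotype, and both treatments were taken as *Wt*. Growth of glia in the cultures had been limited with fluorodeoxyuridine.

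AP-1 is a family of leucine-zipper transcription factors that bind DNA as dimers. Jun proteins can pair with each other or with Fos proteins, whereas Fos proteins need a Jun partner, so the dimers a cell can form depend on the supply from both subfamilies. In hippocampal neurons *Fos*, *Fosb* and *Junb* are immediate early genes, transcribed within minutes of synaptic activity, and Fos protein is widely used as a marker of recently active neurons. *Jund* is known for steadier expression, and *Atf3* for induction by cell stress and axon injury.

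Totals of estimated reads per well ranged from 26083936 to 28240903 with vehicle and from 26806683 to 31844861 with MCH. Summed CPM (reads scaled to a common library size) of 8 neuronal markers were 7522 to 7687 for replicates 1 and 2 of both treatments, above the 6950 to 7057 for replicates 3 and 4. The 8 astrocyte markers summed to 1031 to 1134 CPM in the former and to 2128 to 2421 CPM in the latter. The summed markers of the oligodendrocyte lineage (57.3 to 67.9 against 126 to 147 CPM, with *Mog* and *Sox10* at 0 in all wells), of microglia (5.47 to 7.40 against 8.95 to 11.4 CPM) and of fibroblasts and vessels (18.8 to 25.4 against 55.9 to 62.0 CPM) divided the replicates in the same direction as the astrocyte markers. In the oligodendrocyte sum *Olig1* varied most between wells (60.1 ± 40.1 CPM with vehicle), while *Mbp* varied little (36.9 ± 1.81 CPM, SD, n = 4 each). Values within replicates 1 and 2 and within replicates 3 and 4 are therefore given beside the members' values.

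The DNA before the RefSeq starts differs between members, and the stretches that hold a motif are shown for *Fos*, *Fosb*, *Junb* and *Jun*, genes of both subfamilies. RefSeq promoter sequences (GRCm38.p6) matched 7 of the 8 members, and *Fosl1* had no entry. Starts are those of RefSeq. They equal the annotated starts of *Fos* and *Jun* in the coordinates given here, lie upstream of those of *Junb* and *Jund*, and lie inside the annotated *Fosb*, *Fosl2* and *Atf3*. The window of *Fosl2* is therefore within *Fosl2-201*, the transcript with most of its reads, and not upstream of it. The 250 bases before each RefSeq start were searched on both strands for TGACG, the core of the element that CREB binds, for TGANTCA and TGANNTCA, the 7-base and 8-base AP-1 elements, and for the CArG box that serum response factor binds. TGANNTCA overlaps TGACG where its free bases are CG. TGACG lay before the RefSeq start of *Fos* at 2 places, and before those of *Fosb*, *Junb* and *Atf3* at 1 each, and 17.8% of the 32851 promoters in the RefSeq table hold it. The match of *Atf3*, at −7 to −3 from its RefSeq start, lies within *Atf3-201*, the transcript with most of its reads. TGANNTCA lay before the RefSeq starts of *Jun* and *Jund*, as in 11.9% of all promoters. The window of *Jund* ends at base 70697738, upstream of the annotated start of *Jund-201* at 70698949. In the authors' quantification *Jund-201* had 2878 bases and *Junb-201* 1840, more than their annotated single exons span. The annotated starts of both may therefore differ from those of the transcripts on which reads were counted. No window of the 7 members held TGANTCA or a CArG box (6.75% and 1.47% of all promoters), and that of *Fosl2* held none of the searched motifs. Bases farther upstream were not searched, so an element there would be missed. Capitals mark the motif.
*Fos*, chr12:85473736-85473853, plus strand: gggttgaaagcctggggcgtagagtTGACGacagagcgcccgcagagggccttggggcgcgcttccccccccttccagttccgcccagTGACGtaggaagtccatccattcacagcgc
*Fosb*, chr7:19310076-19310130, minus strand: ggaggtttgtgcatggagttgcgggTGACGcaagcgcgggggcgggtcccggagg
*Junb*, chr8:84978825-84978879, minus strand: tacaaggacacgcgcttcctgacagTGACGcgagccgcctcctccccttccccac
*Jun*, chr4:95052235-95052292, minus strand: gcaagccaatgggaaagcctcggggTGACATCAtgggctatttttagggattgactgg
These matches describe letters in a window, and binding was not measured.

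To ask how the AP-1 genes respond to MCH, reads per gene were compared between treatments. *Fos*, *Fosb* and *Fosl2* fell with MCH, *Fos* to 53.3%, *Fosb* to 57.6% and *Fosl2* to 75.1% of the vehicle level. Neither a Jun gene nor *Atf3* passed the test in either direction. Of all 14962 genes tested with edgeR's quasi-likelihood test, 31 (0.207%) were lower and 4 (0.0267%) higher with MCH at an adjusted *P* under 0.05. The members hold 3 of the 31 lower genes and none of the 4 higher ones, a description, since they were chosen with earlier results of these data known. Their median log2 fold change was −0.39, against −0.0027 over all genes tested. With 4 members the highest MCH-treated well lay below the lowest vehicle-treated well (*Fos*, *Fosb*, *Fosl2* and *Junb*), as it did with 443 of the 14962 genes (2.96%). With the replicate number as a block, which called 337 genes lower (2.25%) and 259 higher (1.73%), the same 3 members were lower and *Jun* was called higher. In cultured cells of more than 1 type, fewer cells of a type and less RNA per cell cannot be told apart.

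*Fos* (ENSMUSG00000021250, chr12:85473890-85477273, plus strand) encodes c-Fos, the partner of c-Jun in the classical AP-1 dimer. Its level was 66.5, 70.4, 54.6 and 59.2 CPM in the vehicle-treated wells and 36.9, 32.1, 31.9 and 32.6 CPM in the MCH-treated wells, replicates 1 to 4 in order. The treatments were far apart. The mean fell from 62.7 ± 7.09 to 33.4 ± 2.36 CPM (SD, n = 4 wells each), a log2 fold change of −0.91 (SE 0.084, 95% confidence interval −1.10 to −0.72, edgeR adjusted *P* = 0.0049). The difference in log2 CPM was −0.99 within replicates 1 and 2 and −0.82 within replicates 3 and 4, where astrocyte markers were higher.

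*Fosb* (ENSMUSG00000003545, chr7:19302696-19310051, minus strand) encodes FosB and, through splicing, the truncated ΔFosB that accumulates after repeated stimulation. It was read at 22.8, 26.3, 23.5 and 23.4 CPM with vehicle and at 12.7, 13.7, 14.5 and 14.5 CPM with MCH. The wells of each treatment lay close together, with no overlap between treatments. The mean fell from 24.02 ± 1.53 to 13.8 ± 0.815 CPM (SD, n = 4 each), by −0.80 on the log2 scale (SE 0.066, interval −0.94 to −0.65, edgeR adjusted *P* = 0.0049). No gene of the 14962 had a smaller unadjusted *P* value than *Fosb*, and *Fos* ranked 4 and *Fosl2* 14. The log2 difference of *Fosb* was −0.89 within replicates 1 and 2 and −0.70 within replicates 3 and 4.

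*Fosl2* (ENSMUSG00000029135, chr5:32135801-32157842, plus strand) encodes Fra-2, which lacks the transactivation domain of c-Fos. It had by far the most reads of the members, with 317, 333, 325 and 337 CPM in vehicle-treated wells and 250.4, 221, 250.2 and 264 CPM in MCH-treated wells. All MCH-treated wells were below all vehicle-treated wells. The mean fell from 328 ± 8.96 to 246 ± 17.9 CPM (SD, n = 4 each), a log2 fold change of −0.41 (SE 0.053, interval −0.53 to −0.29, edgeR adjusted *P* = 0.022). This interval lies above those of *Fos* and *Fosb*, though the differences among Fos genes were not tested. Within replicates 1 and 2 the log2 difference was −0.46 and within replicates 3 and 4 it was −0.37. The call was lost, at a log2 fold change of −0.42, −0.40, −0.40 and −0.41, when vehicle replicate 1, 2 or 4 or MCH replicate 3 was left out (edgeR adjusted *P* = 0.0804, 0.113, 0.0915 and 0.0734).

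*Fosl1* (ENSMUSG00000024912, chr19:5447547-5455946, plus strand) encodes Fra-1, better known from proliferating cells. It was near the lower limit of these libraries, with 43, 58, 27 and 38 estimated reads in vehicle-treated wells and 44, 40, 21 and 17 in MCH-treated wells. The treatments overlapped. Means were 1.53 ± 0.481 and 1.06 ± 0.462 CPM (SD, n = 4 each), and the log2 fold change of −0.53 (SE 0.36, interval −1.34 to 0.27) did not pass (edgeR adjusted *P* = 0.770). The interval holds both 0 and a change as large as that of *Fos*. The log2 difference was −0.36 within replicates 1 and 2 and −0.80 within replicates 3 and 4, and it was below 0 in each of the 4 pairs of same-numbered wells (−1.22 to −0.24). With the replicate block the log2 fold change was −0.56 (SE 0.23, edgeR adjusted *P* = 0.208).

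**Figure D1:**
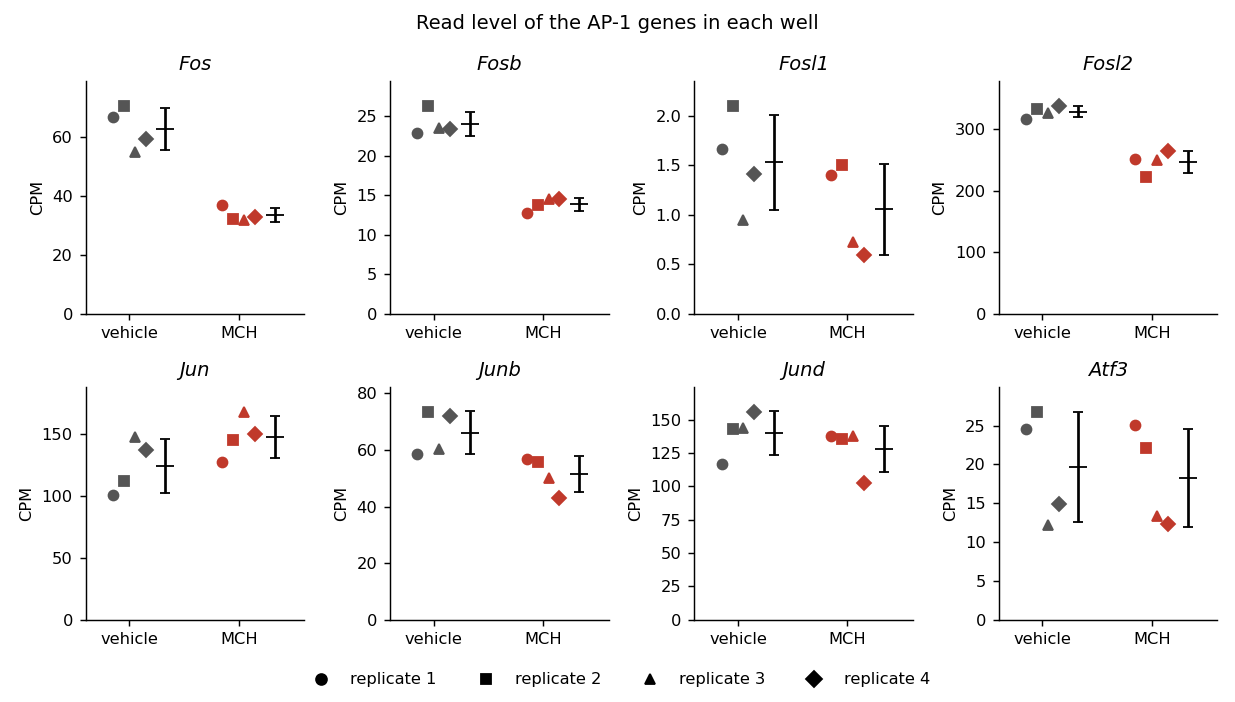
Level of each AP-1 gene in each well, in CPM (vertical axes, each from 0), with vehicle in gray and MCH in red, symbols for the replicate numbers, and the mean ± SD of 4 wells in black. For *Fos*, *Fosb*, *Fosl2* and *Junb* the treatments do not overlap, while *Atf3* lies between 22.1 and 26.7 CPM in replicates 1 and 2 and between 12.3 and 14.97 CPM in replicates 3 and 4 of both treatments.

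Among the Jun genes, *Jun* (ENSMUSG00000052684, chr4:95049034-95052222, minus strand, a single exon) encodes c-Jun, the substrate after which the Jun N-terminal kinases are named. It was read at 100.4, 112, 147 and 137 CPM with vehicle and at 127, 145, 168 and 150.0 CPM with MCH. The treatments overlapped, since vehicle replicates 3 and 4 were above MCH replicate 1, yet in each of the 4 pairs of same-numbered wells the MCH-treated well was the higher one. Means were 124 ± 21.6 and 147 ± 16.7 CPM (SD, n = 4 each), with a log2 fold change of 0.25 (SE 0.13, interval −0.05 to 0.55, edgeR adjusted *P* = 0.681). With the replicate block it was 0.26 (SE 0.039, edgeR adjusted *P* = 0.00115), which passed. With a block for replicates 1 and 2 against 3 and 4 it was again 0.26 (edgeR adjusted *P* = 0.115), and over the alternatives other than leaving out a well adjusted *P* ranged from 0.00115 to 0.805. Whether same-numbered wells belong together beyond that split was not tested. The log2 difference was 0.35 within replicates 1 and 2 and 0.16 within replicates 3 and 4. With the replicate block 1 of the 8 astrocyte markers, the glutamate transporter *Slc1a2*, was called higher as well (787 ± 110.0 to 873 ± 75.7 CPM, SD, n = 4 each, log2 fold change 0.15, edgeR adjusted *P* = 0.0353), and its part in the result for *Jun* was not tested.

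*Junb* (ENSMUSG00000052837, chr8:84974484-84978718, minus strand) encodes JunB, an early gene product that can hold back c-Jun. Its level was 58.7, 73.4, 60.5 and 72.1 CPM with vehicle and 57.0, 55.9, 50.1 and 43.0 CPM with MCH. No MCH-treated well reached the lowest vehicle-treated well, though the margin between the replicates numbered 1 was narrow. Means were 66.2 ± 7.64 and 51.5 ± 6.39 CPM (SD, n = 4 each), and the log2 fold change of −0.36 (SE 0.11, interval −0.60 to −0.12) did not pass adjustment over all genes (edgeR adjusted *P* = 0.348, from 0.0764 with DESeq2 to 0.686 without a filter over the alternatives other than leaving out a well). Within replicates 1 and 2 the log2 difference was −0.22 and within replicates 3 and 4 it was −0.51.

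*Jund* (ENSMUSG00000071076, chr8:70698949-70700616, plus strand), which encodes JunD, was read at 117, 143, 144 and 156 CPM with vehicle and at 137, 135, 137 and 103 CPM with MCH. The lowest of these was MCH replicate 4, and the treatments overlapped. The log2 fold change was −0.13 (SE 0.12, interval −0.39 to 0.14, edgeR adjusted *P* = 0.867), with 0.079 within replicates 1 and 2 and −0.33 within replicates 3 and 4. Without MCH replicate 4 it was −0.025.

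*Atf3* (ENSMUSG00000026628, chr1:191170296-191218039, minus strand) encodes a factor that pairs with Jun proteins and represses transcription as a homodimer. It had 24.6, 26.7, 12.3 and 14.97 CPM with vehicle and 25.1, 22.1, 13.4 and 12.4 CPM with MCH. The replicates, not the treatments, divided these values: the mean was 24.6 ± 1.91 CPM in replicates 1 and 2 and 13.3 ± 1.26 CPM in replicates 3 and 4 (SD, n = 4 wells each), a ratio of 1.86. The log2 fold change with MCH was −0.10 (SE 0.33, interval −0.88 to 0.67, edgeR adjusted *P* = 1.0), and its sign turned in several alternatives, for example to 0.032 with transcript length as an offset. The log2 difference was −0.12 within replicates 1 and 2 and −0.07 within replicates 3 and 4.

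**Figure D2:**
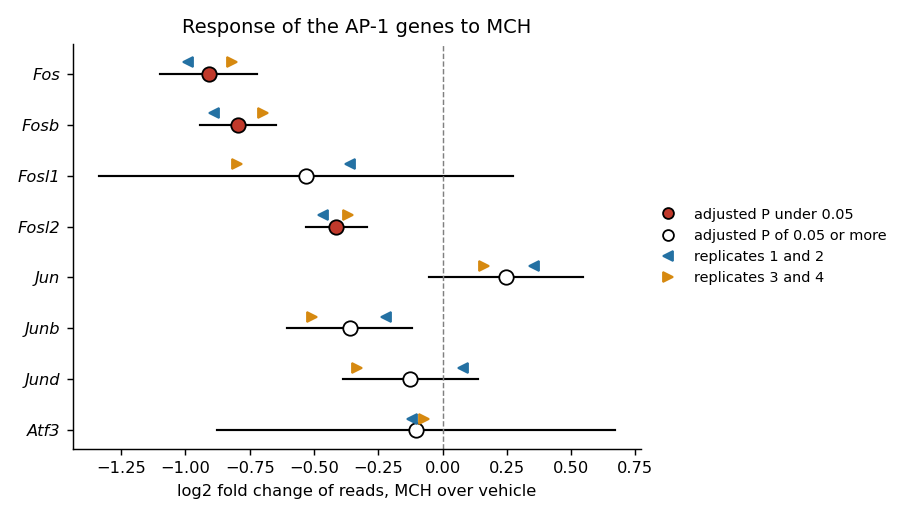
Log2 fold change of reads with MCH over vehicle for the 8 AP-1 genes (circles, filled where the edgeR adjusted *P* was under 0.05, with 95% confidence intervals as lines), and the mean differences in log2 CPM within replicates 1 and 2 and within replicates 3 and 4 (triangles). *Fos* (−0.91), *Fosb* (−0.80) and *Fosl2* (−0.41) lie to the left of 0 with their whole intervals and passed, and *Junb* (−0.36) lies there too but did not pass.

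With both treatments pooled, *Atf3* was the only member whose replicates 1 and 2 did not overlap replicates 3 and 4. *Atf3* was lower in replicates 3 and 4, where the summed glial markers were higher. Within each treatment taken alone, *Jun* and *Fosl1* also had no overlap between these replicates, with *Jun* higher and *Fosl1* lower in replicates 3 and 4. *Jun* averaged 121 ± 19.3 CPM in replicates 1 and 2 and 150.4 ± 12.7 CPM in replicates 3 and 4, and *Fosl1* 1.67 ± 0.308 and 0.922 ± 0.358 CPM (SD, n = 4 each, both treatments pooled). The summed astrocyte markers were 2.09 times as high in replicates 3 and 4, and the neuronal markers 0.918 times. By contrast *Fosb* had a ratio of 1.00 and *Fosl2* of 1.05 between the same wells. Which cells carried these reads was not tested.

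**Figure D3:**
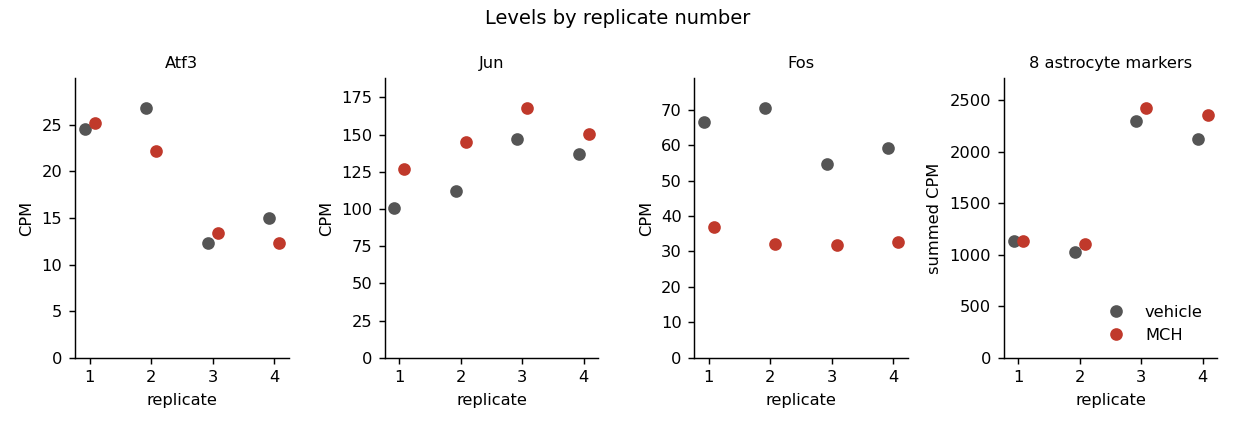
*Atf3*, *Jun* and *Fos* (CPM) and the 8 astrocyte markers (summed CPM) in each well against replicate number, vehicle in gray and MCH in red, each axis from 0. *Atf3* and the astrocyte markers divide replicates 1 and 2 from 3 and 4 at about the same level in both treatments, whereas *Fos* divides by treatment in every replicate.

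To compare the subfamilies in level, TPM, a measure of transcripts that corrects reads for their length and for depth, was summed per gene. With vehicle the order was *Fosl2* (90.2 ± 3.85 TPM), *Jund* (89.7 ± 10.7), *Jun* (71.3 ± 12.9), *Junb* (70.1 ± 7.77), *Fos* (69.5 ± 8.52), *Atf3* (21.1 ± 6.77), *Fosb* (11.6 ± 0.664) and *Fosl1* (1.77 ± 0.540 TPM, SD, n = 4 each). The first 5 formed 1 band in which each gene's wells overlapped those of its neighbor, *Atf3* and *Fosb* overlapped as well, and only the steps from *Fos* to *Atf3* and from *Fosb* to *Fosl1* had no overlap. Reads per kilobase gave the same order for all 8. With MCH the order was *Jun* (85.9 ± 9.81 TPM), *Jund* (83.6 ± 11.0), *Fosl2* (67.4 ± 5.16), *Junb* (55.5 ± 6.76), *Fos* (36.2 ± 3.68), *Atf3* (21.9 ± 7.45), *Fosb* (6.77 ± 0.409) and *Fosl1* (1.24 ± 0.540). *Fosl2* went from the 1st to the 3rd place and *Jun* from the 3rd to the 1st, although *Jun*, *Jund* and *Fosl2* still overlapped with their neighbors. From *Junb* downward, no neighbors overlapped with MCH.

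The 4 Fos genes together made up 174, 182, 165 and 171 TPM in vehicle-treated wells and 116, 101, 111 and 119 TPM in MCH-treated wells. The 3 Jun genes made up 194, 231, 244 and 255 TPM with vehicle and 225, 232, 241 and 201 TPM with MCH. The Fos sums thus did not overlap between treatments and the Jun sums did. Jun transcripts per Fos transcript went from 1.34 ± 0.180 with vehicle to 2.03 ± 0.270 with MCH, and the Fos share of both sums from 42.9% ± 3.40 to 33.2% ± 3.05 (SD, n = 4 each). *Fosl2* alone was 52.2% ± 3.70 of the Fos sum with vehicle and 60.4% ± 1.55 with MCH. These sums are descriptions and were not tested, and transcript levels say nothing of the amounts of protein.

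**Figure D4:**
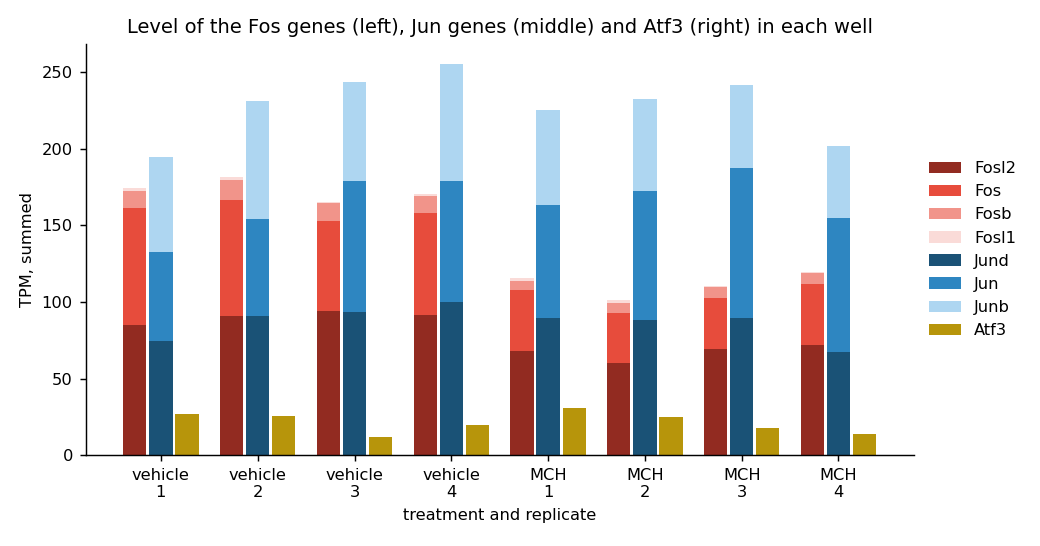
Summed TPM (vertical axis, from 0) of the 4 Fos genes (left bar of each group, reds), the 3 Jun genes (middle bar, blues) and *Atf3* (right bar) in each well. The Fos bars reach 165 to 182 TPM with vehicle and 101 to 119 TPM with MCH, while the Jun bars overlap at 194 to 255 and 201 to 241 TPM.

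To test whether Fos and Jun genes differ in their response, the reads of each Fos gene were divided by those of each Jun gene in the same well, a ratio that needs no library size. *Fos* per *Jun* was 0.662, 0.627, 0.371 and 0.432 in vehicle-treated wells and 0.290, 0.221, 0.190 and 0.217 in MCH-treated wells. The treatments were separate, and the log2 ratio was lower with MCH by −1.16 (exact interval −1.80 to −0.35). The mean ratio was lower with MCH in all 12 pairs of genes, although for *Fosl2* per *Junb* the sign turned within replicates 3 and 4 (0.14) and without MCH replicate 2 (0.040). In 6 of them, *Fos* with each Jun gene, *Fosb* with *Jun* and *Jund*, and *Fosl2* with *Jun*, no wells overlapped and the two-sided exact permutation test gave *P* = 0.0286, the smallest value that 4 against 4 wells allow. Adjusted over the 12 pairs this is 0.0571, so no pair passed 0.05 and none could have with fewer than 7 such pairs. The test let either treatment fall on any well. It kept neither the split between replicates seen in the marker sums nor the same-numbered pairs. No test within the split or within pairs was run, so these *P* values hold only if wells of all replicates are interchangeable. The 12 ratios share 4 Fos and 3 Jun genes, so neither their signs nor their *P* values are independent. By themselves *Fos*, *Fosb* and *Fosl2* already had no overlap between treatments. Ratios to genes outside the Jun subfamily were not taken, so these counts do not show a contrast particular to Jun genes. Intervals here cover 97.1% if the split between replicates is set aside, from the extremes of the differences between wells.

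Differences between the Jun partners were not tested, and the intervals overlapped. Against *Jun* it was −1.05 for *Fosb* (interval −1.44 to −0.67) and −0.67 for *Fosl2* (−1.08 to −0.16) on the log2 scale. Against *Jund* it was −0.78 for *Fos* (−1.30 to −0.26), −0.67 for *Fosb* (−1.08 to −0.09) and −0.29 for *Fosl2* (−0.73 to 0.25, exact permutation *P* = 0.114). Against *Junb* the difference was −0.54 for *Fos* (−0.98 to −0.12), −0.43 for *Fosb* (−0.80 to 0.05, exact permutation *P* = 0.0571) and −0.05 for *Fosl2* (−0.45 to 0.43, exact permutation *P* = 0.714). *Fosl2* per *Junb* was 5.4, 4.53, 5.38 and 4.68 with vehicle and 4.39, 3.96, 4.99 and 6.13 with MCH, which overlap widely. *Fosl1* overlapped in its ratio to every Jun gene, at −0.85, −0.23 and −0.46 for *Jun*, *Junb* and *Jund* (exact permutation *P* = 0.200, 0.514 and 0.257), a test that does not use the pairing. Between same-numbered wells these 3 ratios were lower with MCH in 4 of 4 pairs, by −0.58, −0.09 and −0.32 in the pair that differed least. For *Fos* the difference within replicates 3 and 4 was −0.31 with *Junb* and −0.48 with *Jund*, and within replicates 1 and 2 it was −0.77 and −1.07. For *Fosl1* the order was the other way round, with −0.31 and −0.48 within replicates 3 and 4 and −0.15 and −0.44 within replicates 1 and 2.

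**Figure D5:**
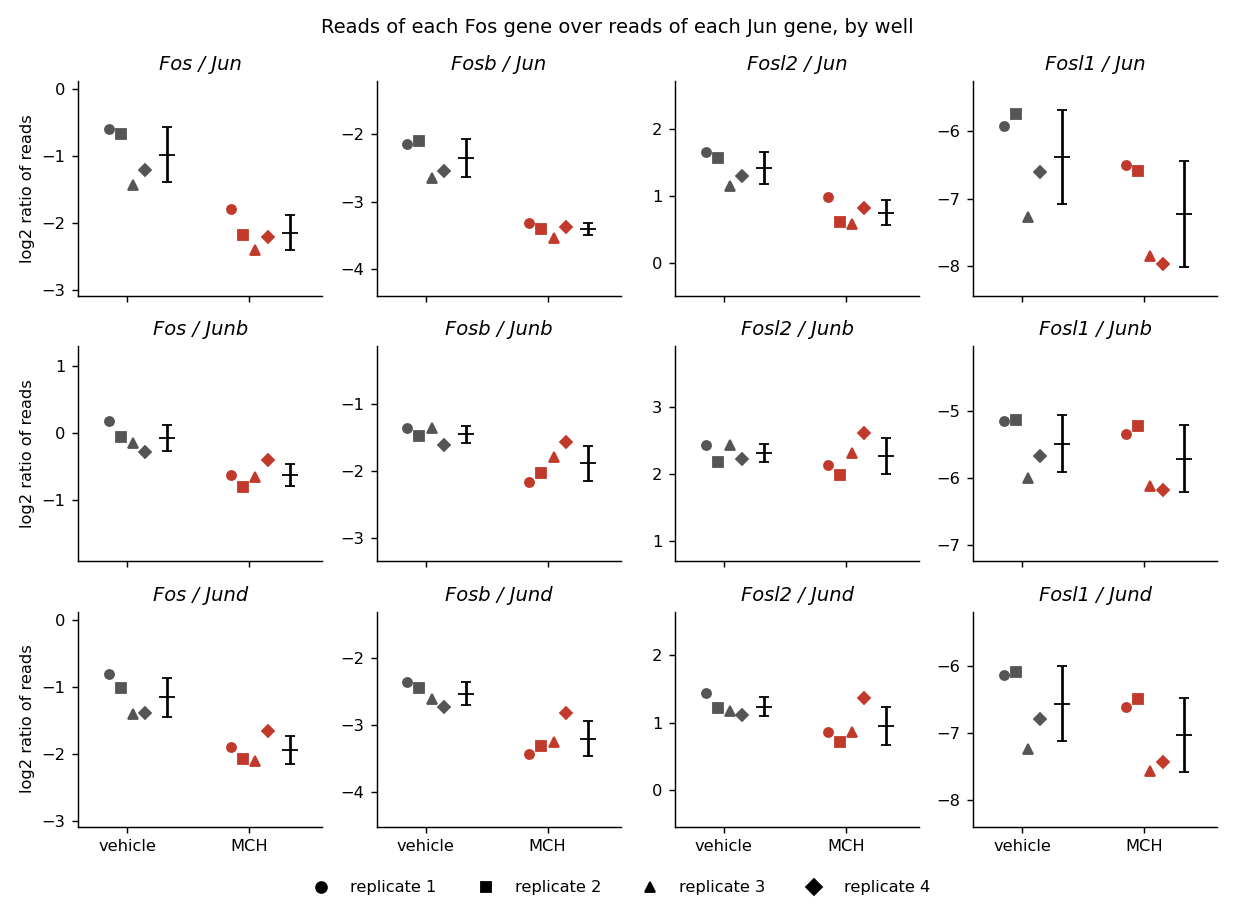
Log2 ratio of the reads of each Fos gene (columns) to those of each Jun gene (rows) in each well, vehicle in gray and MCH in red, symbols for replicate numbers and the mean ± SD of 4 wells in black, every panel spanning the same length of log2 scale. *Fos* per *Jun* differs by −1.16 between MCH and vehicle with no overlap, whereas *Fosl2* per *Junb* overlaps.

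The transcript tables hold 15 transcripts of the 8 genes, of which 12 had a mean of at least 10 estimated reads and were tested. No transcript of the 33527 tested passed edgeR's test at an adjusted *P* under 0.05 (0%), whereas 1476 had an unadjusted *P* under 0.05, 5 of the members' among them. *Fos* reads came mainly from the full-length *Fos-201*, with 90.2% ± 1.89 of the gene's reads with vehicle and 92.1% ± 4.03 with MCH (SD, n = 4 each). *Fos-201* had a log2 fold change of −0.88 (SE 0.090, edgeR adjusted *P* = 0.129). The noncoding *Fos-203* had 73.7, 47.7, 57.9 and 39.4 reads with vehicle and 12.3, 37.0, 12.8 and 25.8 with MCH, and *Fos-204* averaged 112 ± 35.1 and 54.3 ± 42.7 reads. The shares of the forms overlapped between treatments.

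*Fosb* was represented by *Fosb-201* alone, 1 of 7 annotated transcripts, so FosB and ΔFosB could not be told apart. *Fosb-201* had a log2 fold change of −0.80 (SE 0.074, edgeR adjusted *P* = 0.129). *Fosl2-201* made up 99.2% ± 0.894 of *Fosl2* reads with vehicle (log2 fold change −0.40, SE 0.057, edgeR adjusted *P* = 0.227). The retained intron *Fosl2-203* varied from 0 to 181 reads between vehicle-treated wells. *Atf3-201* held 97.8% ± 3.14 of *Atf3* reads with vehicle, and *Atf3-202* averaged 10.4 ± 13.0 reads with vehicle and 20.6 ± 11.2 with MCH. *Fosl1*, *Jun*, *Junb* and *Jund* had 1 transcript each, which carried all of the gene's reads.

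Other genes of the pathway were taken from lists. Over all genes tested, 0.207% were called lower and 0.0267% higher with MCH, or 2.25% and 1.73% with the replicate block. A list of this length without a called gene lies near these shares and is no result about its genes. Of 14 further leucine-zipper genes that can pair with AP-1 proteins, 10 were tested, none passed, and their median log2 fold change was −0.026. The lowest were *Maff*, a small Maf repressor (3.71 ± 0.728 to 2.44 ± 0.126 CPM, SD, n = 4, log2 fold change −0.60, edgeR adjusted *P* = 0.303, and 0.0349 with the replicate block), and *Mafk* (−0.15). The highest were *Atf7*, a CREB-like factor that binds Jun (0.23, edgeR adjusted *P* = 0.403, and 0.0394 with the replicate block), and *Batf3* (0.18). *Batf*, *Batf2*, *Mafa* and *Nrl* had too few reads to be tested.

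The kinases and scaffolds that lead to AP-1, which include the ERK, JNK and p38 kinases, gave 26 tested genes of 27, and none passed, with or without the replicate block. Their log2 fold changes lay between −0.15 (*Map2k3*, a p38 activator) and 0.12 (*Map2k6*, another), with *Map3k13* at −0.088 and *Mapk14* at 0.056 next to these ends and a median of −0.016. All 13 factors that act on the *Fos* and *Jun* promoters were tested and none passed, at a median of 0.0038. Among them *Crem*, of the CREB family, was lowest at −0.32 (edgeR adjusted *P* = 0.501, and 0.00874 with the replicate block). It was followed by *Mef2c* at −0.11, and *Creb1* (0.12) and *Elk1* (0.080), a partner of serum response factor, were highest.

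Of 20 genes described as AP-1 targets, 18 were tested and none passed. The log2 fold change was below 0 in 15 of the 18, against 7637 of all 14962 genes tested. The median was −0.084, against −0.0027 over all genes tested. *Pdyn*, the dynorphin precursor, was among the lowest (−0.36, edgeR adjusted *P* = 0.983), and *Gfap* (0.056), itself an astrocyte marker, and *Ccnd1* (0.055) were highest. With the replicate block 2 target genes were called lower, *Penk*, the enkephalin precursor (26.2 ± 1.21 to 22.4 ± 1.66 CPM, edgeR adjusted *P* = 0.0289), and *Vip*, a neuropeptide (28.2 ± 1.35 to 24.1 ± 2.38 CPM, edgeR adjusted *P* = 0.0298, SD, n = 4 each). They were picked out after their values were seen.

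The genes most like *Fos* over the wells, by Pearson's *r* of log2 CPM over 8 wells among 9557 genes, were *Man1a* (a Golgi mannosidase, *r* = 0.990), *Rassf8* (0.989), *Spry2* (an inhibitor of ERK signaling, 0.989), *Rasl11a* (a Ras-like gene, 0.986) and *Cfap43* (a cilia protein, 0.984). All 5 passed the test, with log2 fold changes from −1.03 (*Rasl11a*) to −0.42 (*Rassf8*). They were picked by likeness to *Fos*, which divides by treatment, so their calls are no separate result. Those most like *Jun* were *Snx24* (*r* = 0.985), *Tmem29* (0.984), *Cdc42ep4* (0.980), *Ypel1* (0.971) and *mt-Nd3* (0.967), and none of these passed. The wells share treatment and the split between replicates, so *r* is given as a description only.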

How the data were processed

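Groups, replicate numbers and time were taken from the sample labels, and dose, age in culture and numbers of cultures from the study's methods. The authors trimmed and quantified stranded poly-A reads with salmon in nf-core/rnaseq (version 3.0) on GRCm38, and the annotation release is not given in the sources used here. The deposited gene table holds estimated counts, unscaled sums over transcripts. The deposited transcript tables hold estimated counts and TPM, scaled by the authors' salmon run for length and depth. Identifiers were matched to GENCODE vM21 (45143 of 45706 genes, 108214 of 109617 transcripts), whose coordinates are given.

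Rounded counts were tested in R 4.3.3 with edgeR 4.0.16 (TMM, filterByExpr with a count minimum of 10 and total minimum of 15, robust quasi-likelihood F test, no block), with Benjamini–Hochberg adjustment over all genes or transcripts tested. A standard error is the log2 fold change over the square root of F. Log2 ratios of reads were compared by the exact permutation test over 70 assignments of treatments to wells, without a block. Alternatives used DESeq2 1.42.0, limma 3.58.1, other scalings, blocks and fits without 1 well. The code was tested on simulated data.

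Same-numbered wells of the treatments deviated together from their treatment means (*r* = 0.364 to 0.481 over genes). By the rule used, the numbers were taken as pairs. That pairing comes from the counts. Wells of unlike number within replicates 1 and 2, or within 3 and 4, were not compared. Pairing by number beyond that split is therefore not shown. The first principal component of these deviations, with 54.4% of their variance, set replicates 1 and 2 apart from 3 and 4.

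The members and lists were chosen with earlier results of these data known. Named besides members are the 2 lowest and 2 highest log2 fold changes of each list, transcripts with a mean of at least 10 reads, and the 5 genes most like *Fos* and *Jun* among genes with a mean of at least 10 CPM. A gene that this rule names is not reported here.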

Additional observations from a re-analysis of the deposited data

Results flagged for a closer look

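In a group of 4 wells, 1 well standing far from the other 3 was looked for in each AP-1 gene. *Fos* in MCH replicate 1 was at 36.9 CPM, while the other MCH-treated wells were at 31.9 to 32.6 CPM. Without that well the log2 fold change of *Fos* was −0.96 (edgeR adjusted *P* = 0.0102). *Jund* in MCH replicate 4 was at 103 CPM, while the others were at 135 to 137 CPM, and without it the log2 fold change was −0.025. Chance alone sets about 1 in 20 such groups apart, and the cause was not tested.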

How the results depend on the processing

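*Fos* and *Fosb* kept their direction and passed under all 8 alternatives and in all 8 fits that left out 1 well, with log2 fold changes of −0.96 to −0.84 for *Fos* and −0.81 to −0.74 for *Fosb* in the latter. *Fosl2* lost its call with transcript length as an offset (−0.44, edgeR adjusted *P* = 0.0599) and in 4 of the 8 fits without a well (−0.44 to −0.36 over the 8). *Jun* passed with the replicate block alone (0.26), and lay between 0.16 and 0.34 without single wells. *Atf3* turned to 0.032 with the length offset, and to 0.030, 0.090, 0.029 and 0.053 without vehicle replicate 1, vehicle replicate 2, MCH replicate 3 and MCH replicate 4, in a range of −0.29 to 0.090. *Fosl1*, *Junb* and *Jund* kept direction and did not pass in any alternative that gave a value (DESeq2 gave *Fosl1* no adjusted *P*). The replicate block changed no other member's call.

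The number of differentially expressed genes, 35, was 154 with DESeq2, 7 with the length offset, 596 with the replicate block (337 lower, 259 higher), 668 with a block for the 2 sides of the replicates, and 4 to 29 without single wells (29 without vehicle replicate 3, 26 without MCH replicate 1 and 4 to 12 without any other well). The cause was not tested. No transcript of the members passed in any of the alternatives run.

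For the ratios, TPM in place of reads gave the same calls. Within replicates 1 and 2 and within 3 and 4 the log2 differences were −0.77 and −0.31 for *Fos*/*Junb*, −1.07 and −0.48 for *Fos*/*Jund*, −0.67 and −0.19 for *Fosb*/*Junb*, −0.97 and −0.36 for *Fosb*/*Jund*, −0.54 and −0.032 for *Fosl2*/*Jund*, and −0.25 and 0.14 for *Fosl2*/*Junb*. *Fosl1* had the fewest reads, at 17 to 58 reads per well.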
